A study of Arabidopsis thaliana with 6 samples.

Results

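The genes described here are 10 nuclear genes of the phosphate starvation response of Arabidopsis thaliana, out of 36917 genes in the deposited count files. They were picked because phosphate genes had fallen in the comparison reported below. The values that chose them are therefore the same values that are given for them, and these are a description without a test. The set holds the SPX-domain genes SPX1 (AT5G20150) and SPX3 (AT2G45130), the phosphatase genes PS2 (AT1G73010) and PAP17 (AT3G17790), the transport genes PHT1;1 (AT5G43350), PHT1;4 (AT2G38940) and PHO1;H1 (AT1G68740), the regulators PHR1 (AT4G28610) and PHO2 (AT2G33770), and the RNA IPS1 (AT3G09922). All 10 had a row in every library.

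RNA-Seq was performed on whole seedlings of Col-0, the wild type, and of the amiR-mterf2 mutant, with 3 libraries per genotype that the study's methods call independent biological replicates. The mutant carries an artificial microRNA against MTERF2, which encodes a chloroplast protein of the mitochondrial transcription termination factor family and whose complete loss is embryo lethal, so it is a knockdown in which the mRNA is only partly removed. The RNA-Seq plants are shown in the study as line amiR1–3, a single transgenic line, and the promoter that drives the microRNA is not given in the sources used here. Both genotypes were 6 d old and had been grown on agar with MS medium at 0.5 of its full strength and 1% sucrose at 22 °C under 100 µmol photons per m2 and s in long days. No limitation or addition of phosphate is named for either.

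When inorganic phosphate runs short, plants induce a set of genes through PHR1 and related MYB-type factors, which bind a short palindrome called P1BS in the promoters of their targets. SPX proteins bind inositol pyrophosphates when phosphate is plentiful and then hold PHR factors off the DNA. A second branch runs through the microRNA miR399, which is itself induced by PHR1 and destroys the mRNA of PHO2, a ubiquitin-conjugating enzyme that removes phosphate transporters, while the RNAs IPS1 and AT4 imitate the miR399 site without being cleaved and so keep the microRNA away from PHO2. Transcripts of SPX1, SPX3, PS2, PAP17, IPS1 and AT4 are widely used as markers of this response.

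Sequences that match the P1BS motif or the miR399 sites of the 2 branches are shown first. P1BS was searched as GNATATNC, a motif that reads the same on both strands, in the RefSeq sequence of assembly TAIR10.1. In the 300 bases from 250 before to 50 after the annotated start it was found in 4 of the 10 genes (40%), in 23 of 68 other listed phosphate genes (33.8%) and in 1716 of 27443 protein-coding nuclear genes (6.25%). In the 1000 bases before the start it was found in 6 of the 10 (60%), in 36 of the 68 (52.9%) and in 5558 of all (20.3%). The 68 include the microRNA genes MIR399A to MIR399F and MIR827, which are not protein-coding. All of these except MIR399B had a match in the 300 bases, and all had one in the 1000 bases. The shares of the 68 are therefore higher than those of its protein-coding genes alone. The matches below lie upstream of the start of genes that were lower in the mutant libraries. Each is printed in the direction of the gene, with the motif in capitals and 20 bases on either side.
SPX1, 735 bases before the start, chr5:6801527-6801574, plus strand: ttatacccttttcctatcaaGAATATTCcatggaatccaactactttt
SPX3, 213 bases before the start, chr2:18606177-18606224, plus strand: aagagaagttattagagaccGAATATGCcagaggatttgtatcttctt
SPX3, 90 bases before the start, chr2:18606300-18606347, plus strand: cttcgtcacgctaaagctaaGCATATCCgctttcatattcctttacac
PS2, 217 bases before the start, chr1:27466538-27466585, minus strand: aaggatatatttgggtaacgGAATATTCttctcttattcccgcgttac
PHT1;1, 786 bases before the start, chr5:17402917-17402964, minus strand: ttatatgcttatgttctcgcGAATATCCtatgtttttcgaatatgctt
IPS1, 582 bases before the start, chr3:3050387-3050434, plus strand: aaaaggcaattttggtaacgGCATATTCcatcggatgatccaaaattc
IPS1, 548 bases before the start, chr3:3050421-3050468, plus strand: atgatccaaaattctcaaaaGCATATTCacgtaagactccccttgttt

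Both IPS1 matches and the SPX1, SPX3, PS2 and PHT1;1 matches shown overlapped no annotated gene. A further match lay 22 bases inside the SPX1 gene and another spanned the start of PHT1;4, from 7 bases before it. PS2 had a second match 602 bases before its start, and PHT1;1 had one 768 bases before, which stands in lower case within the stretch printed above. PHO2 had 1 match, 526 bases before its start. PAP17, PHO1;H1 and PHR1 had none in either window, although PAP17 had one of the larger log2 fold changes. The motif is a description of the letters in these windows and was not tested for binding.

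The miR399 branch can be read from short paired sequences. RefSeq lists a mature RNA with the seed GCCAAAG (bases 2 to 8, in capitals) for each of MIR399A to MIR399F, and these differ only in their 3′ part. Those of MIR399B and MIR399C are identical, and a further mature RNA from the other arm of MIR399C, with another seed, was not used in the search.
miR399a: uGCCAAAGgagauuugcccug
miR399b: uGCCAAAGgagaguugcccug
miR399f: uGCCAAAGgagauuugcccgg
Complementary sites were searched in the annotated transcripts, counting 1 for a mismatch and 0.5 for a G:U pair and allowing up to 3.5. PHO2 holds 5 such sites upstream of its coding part, and the pair below pairs without a mismatch, apart from 2 G:U pairs each, with miR399a and miR399f, respectively. IPS1 and AT4 hold 1 site each, with 3 extra bases opposite the middle of the microRNA. The capitals in the sites mark the bases opposite the seed.
PHO2, chr2:14282106-14282126, minus strand: tagggcaaatcttCTTTGGCa
PHO2, chr2:14281884-14281904, minus strand: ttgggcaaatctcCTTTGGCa
IPS1, chr3:3051224-3051247, plus strand: ttgggcaacttctatcCTTTGGCa
AT4, chr5:895149-895172, plus strand: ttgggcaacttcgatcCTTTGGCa
By the same rules 23 of 27444 genes had a site without extra bases and 18 had one with 3 extra bases, so such a match is rare in the annotation but not limited to these genes. The 7 microRNA genes of the list, MIR399A to MIR399F and MIR827, are not rows of the count files and were not analysed here.

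The libraries held between 18004935 and 21832003 counts. Values are given as raw counts and as CPM, counts scaled to a common library size with TMM factors. The limit below which a gene was treated as not detected, 3 counts, corresponds to 0.140 to 0.175 CPM. Col-0 replicate 2 stood apart from the other libraries. Its mean chi-square per gene against the other Col-0 libraries was 25.2 and 24.3, compared to 3.03 between those, and 43.3% of its counts from 1 to 20 were even, compared to 72.2 to 74.9% in the other 5 libraries. Whether both mates of a read pair were counted in those 5 libraries is not given in the sources used here. If they were, a count there stands for fewer read pairs than in Col-0 replicate 2, and so does the limit of 3 counts. The summed level of 7 root hair markers was 57.7 CPM there, 1.41 and 1.78 CPM in the other Col-0 libraries and 0.0975 to 0.234 CPM in amiR-mterf2, where EXPA7, LRX1, RSL4 and RHD6 were at 0 in every library. Of 9 root markers 7 could be tested and 5 were lower in the mutant, beside 18.2% of all genes tested. The lower ones were CASP1 to CASP5, while WER and SHR did not pass. The 9 root markers summed to 43.1 to 60.3 CPM in Col-0 and 18.9 to 20.4 CPM in amiR-mterf2. The 5 shoot markers summed to 10268 to 17056 CPM and to 13994 to 14223 CPM, so that shoot and root tissue were both present in all libraries. In whole seedlings, fewer cells of a type and less RNA per cell cannot be told apart. MTERF2 itself was counted 48, 33 and 58 times in Col-0, compared to 32, 16 and 8 times in amiR-mterf2, with overlapping groups. Its log2 fold change of -1.15 ± 0.48 (SE) did not pass the test (adjusted p = 0.0837, quasi-likelihood test of edgeR, Benjamini-Hochberg adjusted). The part of the root and root hair markers in the results below was not tested.

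In the comparison of both genotypes, 9 of the 10 genes had lower CPM in all mutant libraries than in any Col-0 library, and PHR1 was the exception. Among all 17902 genes tested, 24.4% had mutant libraries below every Col-0 library, and as the choice of the 10 genes used this contrast nothing is read from their count. By the test, 18.2% of these genes were lower and 18.1% higher in amiR-mterf2 at an adjusted p below 0.05, with a median log2 fold change of -0.02. SPX3 had too few counts for the test. Of the other 9 genes 8 passed this threshold as lower, a count that the choice of the genes fixed and from which nothing is read. In 4 of the 9 (PS2, IPS1 and both PHT1 genes) the counts did not clear the filter on low values in every mutant library. Among the 5 that cleared it in every mutant library, 4 were lower and the median log2 fold change was -1.33. In all 16108 such genes the median was 0.04 and 16.1% were lower. The choice of the genes fixed the values of the 5 as well, and nothing is read from them.

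**Figure D1:**
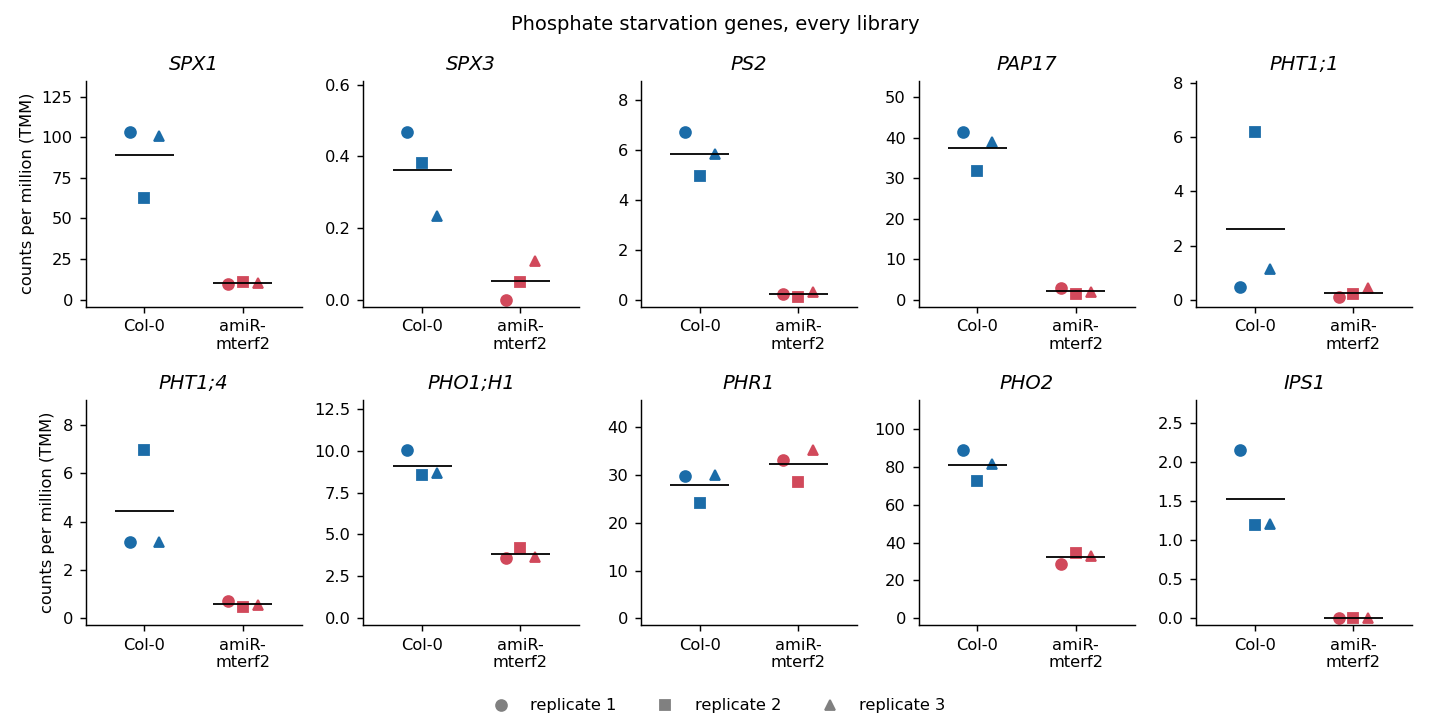
TMM-scaled CPM (y axis, a scale of its own in each panel, starting near 0) of the 10 genes in the 3 Col-0 (blue) and the 3 amiR-mterf2 libraries (red), with marker shapes for the replicates and lines for the group means. All panels except PHR1 show mutant libraries below every Col-0 library, and in the panels of both PHT1 genes Col-0 replicate 2 (square) stands above the other Col-0 libraries.

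The products of the SPX genes act directly on PHR1. Positions and exon numbers are those of RefSeq in assembly TAIR10.1, for the longest transcript. SPX1 (chr5:6802282-6803655, plus strand, 3 exons) encodes a nuclear SPX-domain protein that inhibits PHR1 when phosphate is sufficient and is itself strongly induced by starvation. It had 2207, 1149 and 2158 counts in Col-0 replicates 1, 2 and 3, compared to 161, 229 and 189 counts in amiR-mterf2. In CPM this was 104, 62.6 and 101 compared to 9.40, 11.2 and 10.1. The mutant libraries were close to each other, and the lowest Col-0 library was still several times above them. The means were 89.0 ± 22.9 CPM (SD, n = 3) and 10.2 ± 0.892 CPM, an 8.71-fold difference and a log2 fold change of -3.12 ± 0.19 (SE). SPX1 was the most abundant of the 10 transcripts per length in Col-0.

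SPX3 (chr2:18606410-18607853, plus strand, 3 exons), a relative of SPX1 that is also induced by starvation, was near the limit of detection. It had 10, 7 and 5 counts in Col-0, compared to 0, 1 and 2 in amiR-mterf2, or 0.469, 0.381 and 0.234 CPM and 0, 0.0488 and 0.107 CPM. The groups did not overlap, but all 3 mutant values were below the limit of 3 counts, and SPX3 was left out of the fit. Its Col-0 mean was at least 2.25-fold above the mean level that 3 counts per library stand for. Without the filter its log2 fold change was -2.61 to -2.78, depending on the test.

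The phosphatase genes showed the widest gap of those with counts in every library. PS2 (chr1:27464528-27466348, minus strand, 4 exons) encodes a small phosphatase of the haloacid dehalogenase type that is used as an early marker of phosphate starvation. Its counts were 144, 91 and 125 in Col-0 and 4, 2 and 6 in the mutant, or 6.75, 4.96 and 5.84 CPM against 0.234, 0.0975 and 0.320 CPM. The mutant values thus lay around the detection limit, while all Col-0 values were clearly above it. The log2 fold change was -4.74 ± 0.37 (SE), a 27.0-fold difference of the means. PAP17 (chr3:6089381-6091231, plus strand, 3 exons) encodes a purple acid phosphatase that releases phosphate from organic compounds and is also known as a marker of senescence and oxidative stress. It had 885, 583 and 833 counts in Col-0, compared to 50, 30 and 35 in amiR-mterf2, or 41.5, 31.8 and 38.9 CPM and 2.92, 1.46 and 1.87 CPM. PAP17 was well counted in every library, and its log2 fold change was -4.18 ± 0.22 (SE), or 17.9-fold lower in the mutant.

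PAP17 shares 122 exonic bases with AT3G17800 on the opposite strand, and whether the counting used strand is not given in the sources used here. AT3G17800, looked up for this overlap after the values were seen, had 740, 460 and 773 counts in Col-0, compared to 270, 365 and 244 in the mutant. Reads from the shared bases cannot be told apart between the overlapping genes.

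The transport genes differed among themselves, and Col-0 replicate 2 was the highest Col-0 library for both PHT1 genes. PHT1;1 (chr5:17399769-17402158, minus strand, 3 exons) encodes a high-affinity phosphate/proton symporter of the root surface, which carries much of the uptake from soil. It had 10, 114 and 24 counts in Col-0, compared to 2, 4 and 8 in amiR-mterf2, or 0.469, 6.21 and 1.12 CPM and 0.117, 0.195 and 0.427 CPM. The Col-0 libraries were spread more widely than the groups were apart, and the highest mutant library lay just below the lowest Col-0 library. With all libraries the log2 fold change was -3.34 ± 0.93 (SE). Without Col-0 replicate 2 it was -1.66 ± 0.74 and the gene no longer passed the threshold, which it also missed without amiR-mterf2 replicate 1 or 2. PHT1;1 has close copies next to it on chromosome 5: PHT1;2 had 4, 0 and 0 counts in Col-0, compared to 0 in the mutant, and PHT1;3 had 0 in all libraries. Reads that fit several of these copies could have been dropped or assigned to one of them, so its level is uncertain.

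PHT1;4 (chr2:16257157-16260253, plus strand, 2 exons) is a second high-affinity transporter of the same family that is active in roots under low and high phosphate. Its counts were 67, 128 and 68 in Col-0 and 12, 10 and 10 in amiR-mterf2, or 3.14, 6.97 and 3.18 CPM and 0.701, 0.488 and 0.534 CPM. Again Col-0 replicate 2 was the highest, but the other Col-0 libraries were also well above all mutant libraries. The log2 fold change was -2.94 ± 0.41 (SE), and -2.45 ± 0.40 without that library. PHO1;H1 (chr1:25812449-25816983, minus strand, 11 exons), a homolog of the phosphate exporter PHO1 that loads phosphate into the xylem, had 214, 157 and 186 counts in Col-0, compared to 62, 86 and 68 in the mutant. This was 10.04, 8.55 and 8.69 CPM against 3.62, 4.19 and 3.63 CPM, with narrow spreads in both groups. At -1.25 ± 0.17 (SE), it had the smallest log2 fold change of the genes that were lower.

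**Figure D2:**
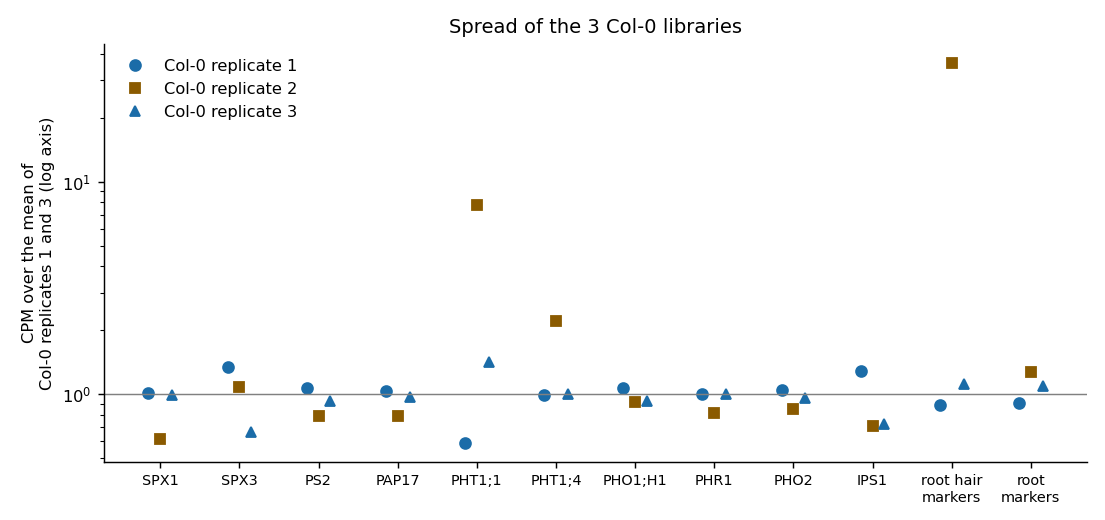
CPM of each gene in the 3 Col-0 libraries divided by the mean of Col-0 replicates 1 and 3 (log axis), with the summed root hair and root markers at the right. Replicate 2 (brown squares) lies at 7.81 for PHT1;1, 2.21 for PHT1;4 and 0.612 for SPX1, and far above the others for the root hair markers.

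Within Col-0, the replicate with high root hair markers was thus high for the root transporter genes and low for others. Relative to the mean of replicates 1 and 3, replicate 2 was at 7.81 for PHT1;1, 2.21 for PHT1;4 and 1.08 for SPX3. It was below 1 for the other 7 genes, from 0.612 for SPX1 to 0.913 for PHO1;H1. The root hair sum moved with both PHT1 genes in this library. The shoot marker sum was also highest there, with 17056 CPM compared to 10268 and 10505 CPM in Col-0 replicates 1 and 3. The part of these markers in the values of the PHT1 genes was not tested. For SPX1, PS2 and PAP17 the difference between genotypes was as large without that library, with log2 fold changes of -3.31, -4.84 and -4.29.

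The regulators behaved differently from each other. PHR1 (chr4:14132811-14135292, minus strand, 8 exons) encodes the MYB-type transcription factor at the head of the response, whose activity is known to be set mainly at the protein level. Its counts were 635, 445 and 641 in Col-0 and 569, 584 and 660 in amiR-mterf2, or 29.8, 24.2 and 30.0 CPM and 33.2, 28.5 and 35.2 CPM. The groups overlapped, and PHR1 was the only one of the 10 genes for which they did. Its log2 fold change was 0.21 ± 0.13 (SE), and it stayed between 0.05 and 0.30 in all 15 settings. The neighbour NPGR2 overlaps 59 exonic bases of PHR1 on the opposite strand. NPGR2, also looked up afterwards, had 232 to 356 counts in Col-0, compared to 234 to 305 in the mutant.

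PHO2 (chr2:14277558-14283113, minus strand, 9 exons) encodes the ubiquitin-conjugating enzyme that is the target of miR399. It had 1896, 1336 and 1749 counts in Col-0, compared to 493, 709 and 620 in amiR-mterf2, or 88.9, 72.8 and 81.7 CPM and 28.8, 34.6 and 33.1 CPM. All mutant libraries were below all Col-0 libraries, and the means of 81.1 ± 8.10 CPM (SD, n = 3) and 32.1 ± 3.01 CPM differed by 2.52-fold. The log2 fold change was -1.33 ± 0.12 (SE).

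IPS1 (chr3:3050989-3051530, plus strand, 1 exon), the RNA that imitates the miR399 site shown above, was the only one of the 10 with no count in the mutant. It had 46, 22 and 26 counts in Col-0, or 2.16, 1.20 and 1.22 CPM, and 0 in each mutant library, which allows up to 0.175, 0.146 and 0.1601 CPM. IPS1 was therefore at least 9.49-fold lower in amiR-mterf2, with the limit of 3 counts per library in place of 0. With the counts of the 5 libraries of mostly even counts divided by 2, the bound was 4.803-fold. PHO2 and IPS1, which is known to shield PHO2 from miR399, were both lower in the mutant. AT4, a second RNA of this type, was counted far more often: 3974, 2353 and 3865 counts in Col-0, compared to 64, 76 and 45 in amiR-mterf2. It was the phosphate gene outside the 10 with the largest fall, with a log2 fold change of -5.65 ± 0.21 (SE, adjusted p = 3.98e-08).

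**Figure D3:**
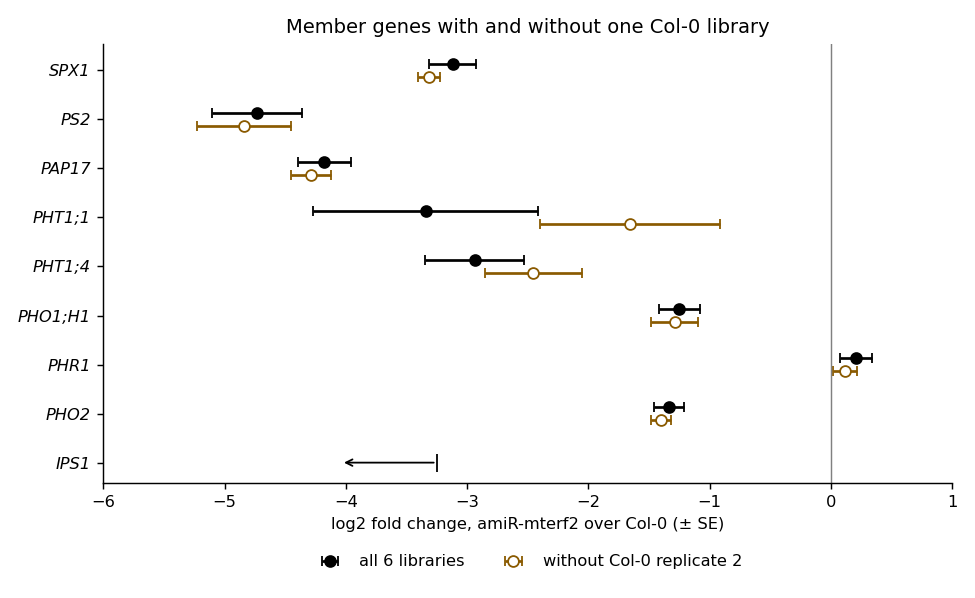
Log2 fold change of amiR-mterf2 over Col-0 (x axis) with its standard error from the edgeR fit, with all 6 libraries (black) and without Col-0 replicate 2 (brown, open). The arrow for IPS1 starts at the bound set by 3 counts per library, and SPX3 is left out because it had too few counts. PHT1;1 moved from -3.34 to -1.66 without that library and PHR1 stayed near 0.

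Per length of annotated exons, the order of the genes changed between the genotypes. In Col-0 the level of SPX1 was 73.8 ± 19.0 CPM per kb (SD, n = 3), followed by PAP17 with 22.55 ± 3.05, PHO2 with 19.4 ± 1.94 and PHR1 with 15.8 ± 1.84 CPM per kb. PAP17 and PHO2 did not differ beyond their spread. PS2 with 4.47 ± 0.687, PHO1;H1 with 2.85 ± 0.257, IPS1 with 2.81 ± 1.01, PHT1;4 with 2.22 ± 1.10 and PHT1;1 with 1.29 ± 1.56 CPM per kb were lower, and the last 4 overlapped within their spreads. SPX3 was the lowest with 0.394 ± 0.130 CPM per kb. In amiR-mterf2 PHR1 was the highest with 18.2 ± 1.95 CPM per kb, followed by SPX1 with 8.47 ± 0.740 and PHO2 with 7.70 ± 0.721 CPM per kb, which overlapped. PAP17 and PHO1;H1 were at 1.26 ± 0.453 and 1.20 ± 0.103 CPM per kb, and the other 5 genes were at 0.287 CPM per kb or less.

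To set regulators against targets, the mean log2 CPM of PHR1 and PHO2 was subtracted from that of the other 8 genes in each library. The result was -3.26, -2.74 and -3.33 in Col-0 and -5.37, -5.58 and -5.35 in amiR-mterf2. The 3 mutant libraries lay close together and below all Col-0 libraries, with means of -3.11 ± 0.32 (SD, n = 3) and -5.43 ± 0.12, and a difference of -2.32 on the log2 scale. With PHR1 as the only regulator, a choice made after PHO2 was seen to be lower, the difference was -3.09. Leaving a lower gene out of the regulators can only widen the difference. As the genes were picked on this comparison, no test was made.

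**Figure D4:**
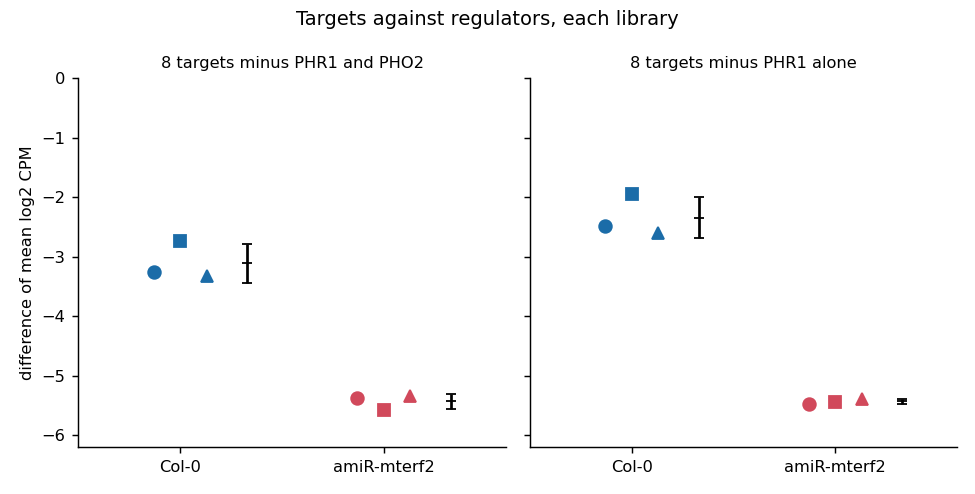
Mean log2 CPM of the 8 target genes minus that of PHR1 and PHO2 (left) or of PHR1 alone (right) in each library, where bars give the mean and SD of 3 libraries. The left panel shows -3.33 to -2.74 in Col-0 and -5.58 to -5.35 in amiR-mterf2.

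The other genes of the phosphate pathway come from the same libraries, and their list was drawn up with earlier results of these data known. The 10 were picked because phosphate genes had fallen, so the values of these other genes are not independent of that choice. Of 68 listed genes, 61 had a row and 46 had enough counts for the test. In the quasi-likelihood test of edgeR, Benjamini-Hochberg adjusted across every gene tested, 21 of the 46 were lower and 8 higher in amiR-mterf2, and 17 did not pass. The share of all genes tested was 18.2% lower and 18.1% higher, and the 46 genes had a median log2 fold change of -0.43, beside -0.02 in all. Of the 40 that cleared the filter in every mutant library 16 were lower and 8 higher, with a median of -0.25. In all genes that cleared it, 16.1% were lower and the median was 0.04. The share of higher genes among these was not determined, so nothing is read from the 8. Without Col-0 replicate 2, 23 of 48 were lower and 8 higher, beside 3804 lower and 4045 higher among all 18303 genes then tested. In every alternative in which they could be fitted, 17 of the 21 and 4 of the 8 passed. The exceptions among the lower genes were VIH1, PHT3;3, PECP1 and PAP26.

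The enzymes of membrane lipid remodelling replace phospholipids with lipids free of phosphorus. All 7 listed genes were tested and lower, beside 18.2% of all genes tested, with log2 fold changes from -4.02 to -1.01. MGD2, MGD3 and NPC4 did not clear the filter on low values in every mutant library and were tested through their Col-0 counts, while the other 4 cleared it. MGD3 and MGD2, which make galactolipids outside the thylakoid pathway, had 155, 135 and 215 against 10, 4 and 14 counts and 174, 110 and 123 against 22, 6 and 12 counts. Their log2 fold changes were -4.02 ± 0.36 (adjusted p = 1.00e-05) and -3.19 ± 0.40 (adjusted p = 0.000111). Phospholipase genes fell as well: PLDZ2 had 153, 143 and 144 counts in Col-0, compared to 28, 26 and 20 in the mutant (log2 fold change -2.45, adjusted p = 1.64e-05), and NPC4 had 24, 28 and 12 against 2, 0 and 2 (-3.78, adjusted p = 0.00341). The count of 7 was the same without Col-0 replicate 2.

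In the list of PHT1 traffic and export genes, 4 of 5 were lower and 1 was higher. Among all genes tested 18.2% were lower and 18.1% higher. G3Pp1, a putative glycerol-3-phosphate transporter induced by starvation, had 1041, 662 and 1131 counts in Col-0, compared to 36, 43 and 30 in amiR-mterf2, a log2 fold change of -4.57 ± 0.20 (adjusted p = 6.85e-08). PHO1, which exports phosphate to the xylem and is a target of PHO2-dependent degradation, had 410, 344 and 349 counts against 97, 103 and 76, a log2 fold change of -1.88 ± 0.16 (adjusted p = 6.10e-06). Its homolog PHO1;H3 moved the other way, with 40, 61 and 46 against 86, 95 and 92 counts and 0.99 ± 0.26 (adjusted p = 0.0113). The remaining 7 PHT1 transporters had too few counts for the test, with at most 6 counts in any library.

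Of the scavenging genes (acid phosphatases, ribonuclease and related enzymes), 5 of 6 tested were lower, beside 18.2% of all genes tested, and the remaining one did not pass. PPCK1, a kinase of phosphoenolpyruvate carboxylase, had 121, 107 and 135 counts in Col-0, compared to 4, 15 and 11 in the mutant, a log2 fold change of -3.48 ± 0.34 (adjusted p = 1.68e-05). It was tested through its Col-0 counts, as it did not clear the filter in every mutant library. PECP1 and PAP26, named after their values were seen, lost the threshold in 3 and 8 of 14 alternatives (adjusted p = 0.00751 to 0.0643 and 0.00155 to 0.160). Of the vacuole and organelle transporters, 2 of 11 were lower, 1 was higher and 8 did not pass. Among all genes tested 18.2% were lower and 18.1% higher, so nothing is read from these counts. Of the lower ones, PHT3;3 did not clear the filter in every mutant library and was tested through its Col-0 counts. The one that rose was PHT3;2, a mitochondrial phosphate carrier, with 4, 0 and 0 counts in Col-0, compared to 14, 16 and 12 in amiR-mterf2 (log2 fold change 3.40 ± 0.89, adjusted p = 0.0117). PHT3;2 passed the filter on low values only through its mutant counts, and its fold change rests on Col-0 values at or near 0.

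Of the PHR factors and their partners, 3 of 6 were higher, beside 18.1% of all genes tested, and 3 did not pass. WRKY6, a repressor of PHO1, had 172, 250 and 175 counts in Col-0, compared to 551, 584 and 534 in the mutant, with a log2 fold change of 1.58 ± 0.19 (adjusted p = 8.53e-05). PHL2, a relative of PHR1, rose by 0.94 ± 0.14 on the log2 scale (adjusted p = 0.000392), and SIZ1, a SUMO ligase that modifies PHR1, by 0.44 ± 0.10 (adjusted p = 0.00518). PHL1, the closest relative of PHR1, had 102, 101 and 112 against 52, 56 and 102 counts, with overlapping groups and a log2 fold change of -0.47 (adjusted p = 0.204).

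The 2 other SPX genes went in opposite directions. SPX2 had 396, 257 and 484 counts in Col-0, compared to 164, 246 and 206 in amiR-mterf2 (log2 fold change -0.76 ± 0.18, adjusted p = 0.00630). SPX4, whose protein is degraded when phosphate is low and whose mRNA is not induced by starvation, had 133, 103 and 169 against 195, 206 and 149 counts and rose by 0.57 ± 0.19 on the log2 scale (adjusted p = 0.0345). NLA, a ubiquitin ligase that removes PHT1 proteins and is the target of miR827, rose by 0.55 ± 0.18 (adjusted p = 0.0347). Of the 4 genes of inositol pyrophosphate synthesis, 1 was lower, 1 higher and 2 did not pass, beside 18.2% lower and 18.1% higher of all genes tested. The higher one, VIH2, rose by 0.38 ± 0.14 (adjusted p = 0.0457). The lower one, VIH1, named after its values were seen, lost the threshold in 9 of 14 alternatives, among them the replicate block, DESeq2 and each amiR-mterf2 library left out (adjusted p = 0.0201 to 0.142). The rises of SPX4, NLA, SIZ1 and VIH2 did not pass the threshold when libraries were scaled by total counts alone, and those of SPX4, NLA and VIH2 did not when amiR-mterf2 replicate 1 or 2 was left out, with adjusted p over all alternatives of 0.0209 to 0.148 for SPX4, 0.0120 to 0.184 for NLA, 9.92e-06 to 0.0700 for SIZ1 and 0.00185 to 0.337 for VIH2. The 3 genes of the root growth response to low phosphate had log2 fold changes of -0.39 to 0.03 and did not pass (adjusted p = 0.439 to 0.875).

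**Figure D5:**
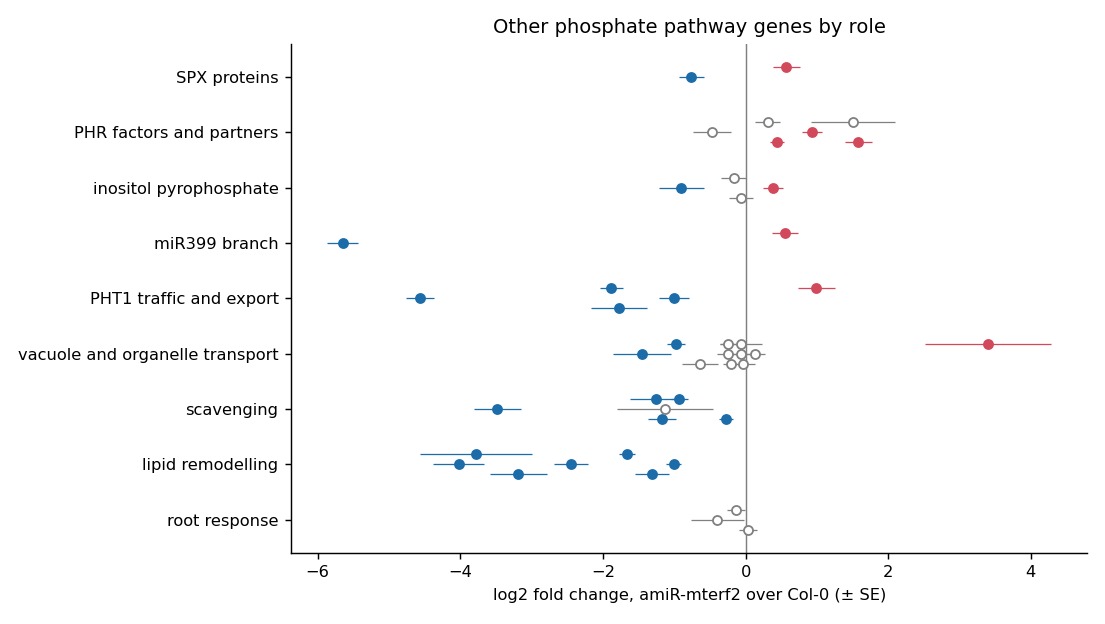
Log2 fold change of amiR-mterf2 over Col-0 (x axis) with standard error for the 46 other phosphate pathway genes tested, grouped by role, where filled points passed the threshold (blue lower, red higher), open grey points did not. Lipid remodelling genes lie at -4.02 to -1.01, while PHR factors and their partners lie at -0.47 to 1.58.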

How the data were processed

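RNA from 6-d-old seedlings was depleted of ribosomal RNA and sequenced as read pairs by the authors. The deposited files hold raw counts per gene, 1 file per library, not normalized. The submitters' processing notes name Trimmomatic, FastQC, TopHat2 2.1.1, featureCounts and TAIR10, whereas the file headers name HISAT2. Strand, treatment of multi-mapping reads and annotation version are not given in the sources used here. Counts of all 36917 genes were filtered with filterByExpr (at least 10 counts in a library of median size, 15 in total), which left 17902 genes, scaled with TMM and fitted with edgeR 4.0.16 (glmQLFit, glmQLFTest) in R 4.3.3, with genotype as the only term and a threshold of 0.05 on the Benjamini-Hochberg adjusted p. The study's RNA-Seq methods name no test for counts. CPM are TMM-scaled. The mean log2 CPM used for targets against regulators has a prior count of 2. Library totals of 18004935 to 21832003 counts set the precision, and the limit of 3 counts covers counting error only.

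Groups were taken from the sample labels. The 10 genes and all gene lists were chosen with earlier results of these data known. Named besides the 10 are SPX2, SPX4, PHL1, PHT1;2, PHT1;3, AT4, PHO1, MTERF2 and, of the other pathway genes past the threshold, up to the 8 with the largest falls and the 8 with the largest rises. Alternatives were other scalings, DESeq2 1.42.0, other filters, a replicate block and leaving out each library. P1BS motifs, microRNA sites, positions and exon lengths came from RefSeq assembly TAIR10.1.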

Additional observations from a re-analysis of the deposited data

How the results depend on the processing

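SPX1, PAP17, PHT1;4, PHO1;H1 and PHO2 had a negative log2 fold change in all 15 settings, PS2 in 14, IPS1 in 14 and PHT1;1 in 13 in which they could be fitted, and PHR1 a positive one in 15. Scaling by total counts moved the median of all genes to -0.17. There 2131 genes and 4 other phosphate genes were higher, and 4136 genes were lower. Leaving out each library gave 18 to 23 lower and 5 to 9 higher other phosphate genes (5 without amiR-mterf2 replicate 1 or 2), 2489 to 3804 lower and 2479 to 4045 higher genes among all tested, and -2.43 to -2.14 for targets minus regulators. That difference was -2.81 with a prior count of 0.5 and -3.09 with PHR1 as the one regulator, both chosen after seeing the data. Without SPX3 and IPS1, a setting that was not planned either, it was -2.38. With the counts of the 5 libraries of mostly even counts halved, also chosen after seeing the data, it was -1.999, and 20 other phosphate genes were lower and 8 higher, while PHT1;1 did not pass. DESeq2 and the filter of 10 counts in every library gave no value for targets minus regulators, which rests on no fit. The cause of these shifts was not tested.

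Same-numbered libraries deviated together with correlations of 0.037, 0.030 and -0.015, so no pairing by replicate number was seen. These are deviations from means of 3 libraries, with Col-0 replicate 2 standing apart, and cannot exclude a shared batch. With the replicate block, 3126 genes were lower and 3146 higher, and 19 and 9 of the other phosphate genes. Targets minus regulators uses no block, and the library scaling cancels in it. Its value of -2.32 under the block and the other scalings was therefore fixed in advance. Depth limits SPX3, IPS1, PHT1;1 and PS2, whose mutant counts were 8 or fewer.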
